A study of Mus musculus with 14 samples.

Results

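Lrrtm1 to Lrrtm4, the netrin-G ligand genes Lrrc4c, Lrrc4 and Lrrc4b, and the netrin-G genes Ntng1 and Ntng2 form 3 small families of synaptic adhesion molecules. They were chosen by gene symbol, and the 9 genes were found as 9 of the 55291 rows of each count table. All 9 passed the filter on low counts, which left 22150 genes to test. The 14 libraries hold polyadenylated RNA of mouse dentate gyri cut with a scalpel from entorhino-hippocampal slice cultures, each library from a single dentate gyrus. 6 libraries are wildtype (C57BL/6J, APP+/+) and 8 are APPko, from APP-/- animals that lack the amyloid precursor protein. Slices came from pups of postnatal day 4 to 5 and were kept for 18 days or longer, and no treatment is named for either genotype. The labels do not say which cultures shared an animal, so p-values measure the spread between cultures.

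LRRTM proteins are leucine-rich repeat proteins of the excitatory postsynapse that bind presynaptic neurexins. LRRTM1 and LRRTM2 stabilise AMPA receptors. LRRTM4 also binds heparan sulfate chains, such as those of glypicans, and is known for its role at excitatory synapses on dentate granule cells. LRRTM3 is abundant in the dentate gyrus too and was proposed to favour cleavage of the amyloid precursor protein by beta-secretase. Netrin-G1 and netrin-G2, in contrast to classical netrins, are tethered to axon membranes by a lipid anchor. Their postsynaptic partners are NGL-1 (Lrrc4c) and NGL-2 (Lrrc4), and the pairs are known for marking different dendritic layers of the hippocampus, the perforant path layers of the dentate gyrus included. NGL-3 (Lrrc4b) binds receptor phosphatases of the LAR family instead.

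Lrrtm3, Lrrtm4 and Ntng1 were lower in APPko. Lrrtm3 fell 1.68-fold, Lrrtm4 1.82-fold and Ntng1 1.46-fold (edgeR's quasi-likelihood test, Benjamini-Hochberg adjusted p = 0.016, 0.033 and 0.0499). Lrrtm2 and Lrrc4c had lower means in APPko but missed the threshold of 0.05 (edgeR adjusted p = 0.059 and 0.055), and Lrrtm1, Lrrc4, Lrrc4b and Ntng2 did not pass either. Lrrtm2, Lrrtm3, Lrrtm4, Lrrc4c and Ntng1 had an unadjusted p under 0.05, which 20.4% of all tested genes had in either direction and 11.4% as lower. In this fit of all 14 libraries none of the 9 genes was higher in APPko at an adjusted or an unadjusted p under 0.05 by edgeR. None was at an adjusted p under 0.05 by DESeq2 either. Of all tested genes 2.35% passed in either direction and 1.41% passed as lower in APPko, against 3 of these 9. The median log2 fold change of the 9 genes was -0.36, beside -0.01 over all tested genes. The 9 genes were picked with earlier results of these data known, so this count is a description and no test of the families.

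**Figure D1:**
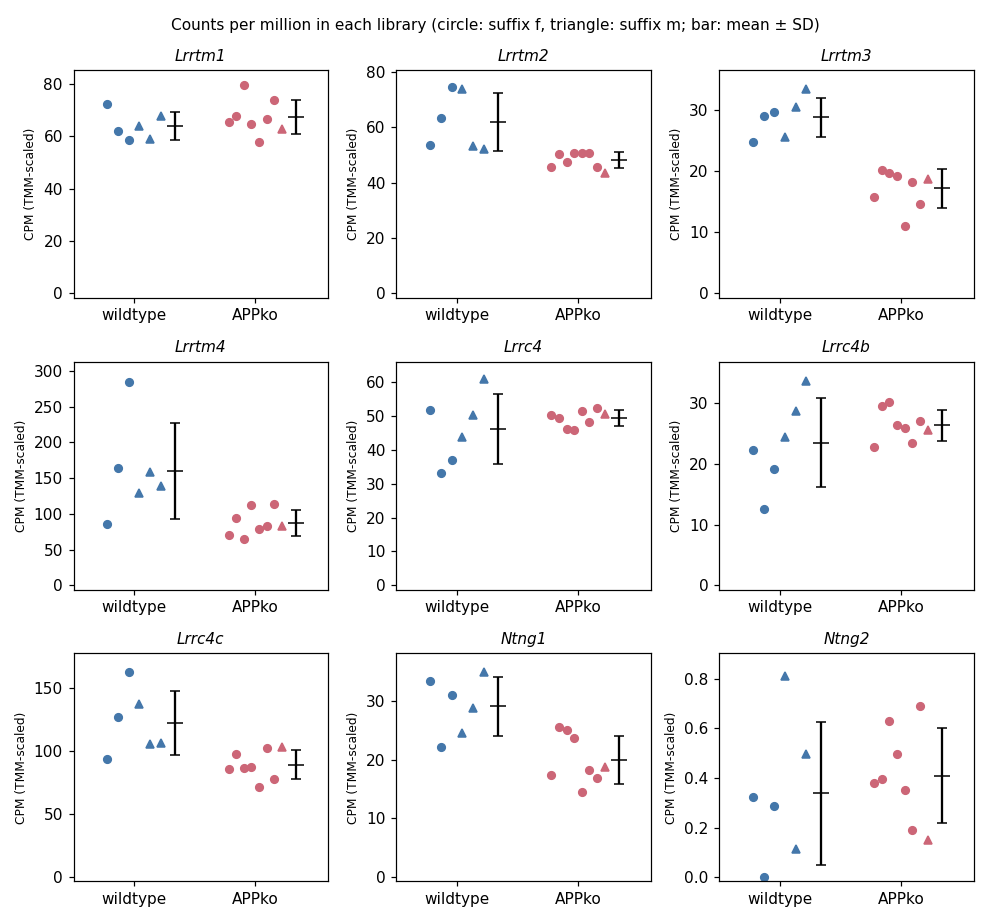
CPM (counts relative to the library total, scaled between libraries by TMM) of each of the 9 genes in every library (y axis) by genotype (x axis). Points are libraries, circles and triangles mark the f and m suffix of the count table headers, and bars give the mean ± SD. All 8 APPko libraries lie below the 6 wildtype libraries for Lrrtm3 and Lrrtm2, while the genotypes overlap for the other 7 genes.

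The stretch of genome upstream of the transcription start is shown for Lrrtm3 and Lrrtm4, which fell, and for Lrrtm1, the family member with the log2 change closest to 0. The sequences are RefSeq's for GRCm38.p6. For Lrrtm3 and Lrrtm4 they end just before the first exon of the deposited annotation, and for Lrrtm1 just before RefSeq's own start, which lies upstream of that exon. Of the 9 genes 8 had an entry. The stretches are chr10:64090278-64090505 on the minus strand for Lrrtm3, chr6:80018627-80018876 on the plus strand for Lrrtm4 and chr6:77242227-77242476 on the plus strand for Lrrtm1, and capitals mark CG dinucleotides.
Lrrtm3: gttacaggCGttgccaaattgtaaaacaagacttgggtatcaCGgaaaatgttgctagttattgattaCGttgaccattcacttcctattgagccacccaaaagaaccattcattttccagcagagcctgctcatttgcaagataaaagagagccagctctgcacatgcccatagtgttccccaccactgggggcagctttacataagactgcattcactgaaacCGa
Lrrtm4: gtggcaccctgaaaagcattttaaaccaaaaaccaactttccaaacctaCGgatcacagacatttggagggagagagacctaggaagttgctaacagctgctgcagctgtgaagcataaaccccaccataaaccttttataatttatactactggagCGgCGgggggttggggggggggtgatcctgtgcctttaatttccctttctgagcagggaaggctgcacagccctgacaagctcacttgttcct
Lrrtm1: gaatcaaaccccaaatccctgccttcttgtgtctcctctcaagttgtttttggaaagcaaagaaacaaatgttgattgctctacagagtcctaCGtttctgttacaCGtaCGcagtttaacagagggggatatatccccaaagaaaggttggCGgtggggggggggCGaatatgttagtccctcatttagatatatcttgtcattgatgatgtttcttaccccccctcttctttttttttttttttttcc
Lrrtm3 holds 4 CG dinucleotides in 228 bases, Lrrtm4 3 in 250 bases and Lrrtm1 5 in 250 bases. Over the 32851 RefSeq windows of the same length the median was 5 at 228 bases and 6 at 250 bases. The letters TATAAA, searched on both strands, occur 2 times upstream of Lrrtm4 and in neither of the other stretches, and 12.4% of all windows of 250 bases and 11.6% of those of 228 bases hold them. GGGCGG, also searched on both strands, occurs in none of the 3 stretches, and 32.7% of all windows of 250 bases and 29.5% of those of 228 bases hold it. No promoter activity was measured, so these letters are a description.

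The libraries held 16686909 to 31031126 counts. App, read first as a check of the labels, lay between 679 and 964 CPM in wildtype and between 182 and 231 CPM in APPko, so no library went against its label. All 12 granule cell markers in the list used here were detected. Markers of CA field pyramidal cells, interneurons, astrocytes, oligodendrocytes, microglia and vessels were detected too, with no marker at 0, and no gene of these other lists passed the test between genotypes. Wildtype libraries 2 and 3 stood apart by TMM scaling factors of 0.852 and 0.847, against 0.976 to 1.09 in the other 12. 3 wildtype and 7 APPko libraries carry an f in the header of their count table, and 3 wildtype libraries and 1 APPko library carry an m. 209 genes passed as higher and 312 as lower in APPko (236 and 119 when libraries were scaled by total counts alone).

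Lrrtm3 (ENSMUSG00000042846.8, chromosome 10, 63928472 to 64090277, GRCm38, minus strand) separated the genotypes. Wildtype libraries lay between 24.7 and 33.4 CPM with a median of 29.3 CPM, and APPko libraries between 11.0 and 20.2 CPM with a median of 18.5 CPM. The lowest wildtype library was above the highest APPko library, a separation seen in 1.12% of all tested genes in either direction. Mean levels were 28.8 ± 3.22 CPM for wildtype against 17.2 ± 3.18 CPM for APPko (SD, n = 6 and 8). The log2 fold change was -0.75 (SE 0.13, 95% interval -1.02 to -0.48), and Lrrtm3 had the 20th smallest p of all tested genes. It passed in all 14 leave-one-out fits, which each drop 1 library (edgeR adjusted p = 0.0063 to 0.045). Without wildtype libraries 2 and 3 together the fold was 1.65 and the adjusted p 0.057 (edgeR).

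Lrrtm4 (ENSMUSG00000052581.13, chromosome 6, 80018877 to 80810143, plus strand) had the largest fitted change of the 9 genes and a wide spread in wildtype. Wildtype libraries ran from 86.4 to 284 CPM with a median of 149 CPM, and APPko libraries from 65.4 to 114 CPM with a median of 82.8 CPM. Wildtype library 3 was by far the highest, and wildtype library 1, the lowest of its genotype, lay inside the APPko range. The means were 160.0 ± 66.8 CPM in wildtype against 87.7 ± 18.0 CPM in APPko (SD, n = 6 and 8), a log2 fold change of -0.87 (SE 0.20, edgeR adjusted p = 0.033). All 8 APPko libraries were below the wildtype median. The call was lost in 10 of the 14 leave-one-out fits, namely without wildtype library 2 or 3 or any 1 of the APPko libraries (edgeR adjusted p = 0.051 to 0.087). Without wildtype library 3 the fold was 1.52, and without libraries 2 and 3 of that genotype it was 1.45 (edgeR adjusted p = 0.17).

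Lrrtm2 (chromosome 18) was the other gene whose genotypes did not overlap. Its wildtype libraries lay between 52.3 and 74.8 CPM with a median of 58.5 CPM, and its APPko libraries between 43.6 and 50.9 CPM with a median of 49.1 CPM. Wildtype libraries 1, 5 and 6 sat close above the APPko range, while libraries 3 and 4 were highest. The fitted fold was 1.29 (log2 fold change -0.36, SE 0.10, edgeR adjusted p = 0.059), so the gene missed the threshold although every APPko library was below every wildtype library. It passed in 4 of 13 other settings, DESeq2 among them, and in the leave-one-out fits without wildtype library 1, 5 or 6.

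Lrrtm1 (chromosome 6, 77242689 to 77257791, plus strand) did not separate the genotypes. Wildtype libraries held 58.5 to 72.2 CPM (median 63.0) and APPko libraries 57.9 to 79.4 CPM (median 66.0). The ranges overlapped, with 2 APPko libraries above the highest wildtype library and 1 below the lowest. The log2 fold change was 0.08 (SE 0.09) with a 95% interval from -0.11 to 0.26 and an edgeR adjusted p of 0.69. Whether the change of Lrrtm3 or Lrrtm4 differs from that of Lrrtm1 was not tested.

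**Figure D2:**
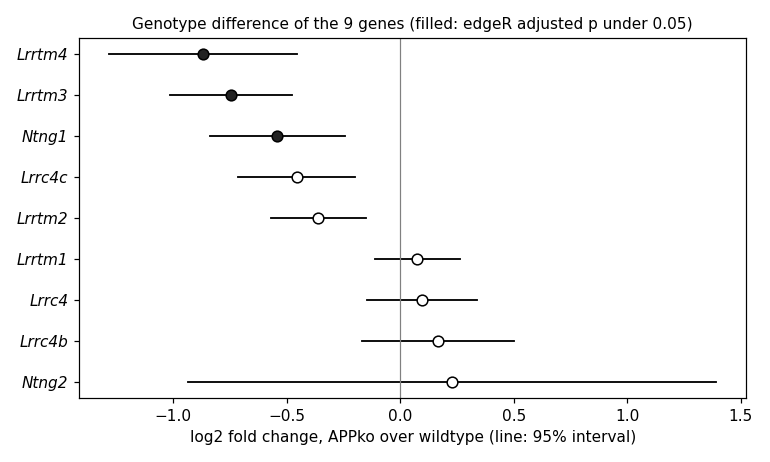
Fitted log2 fold change of APPko over wildtype (x axis) for each of the 9 genes (y axis), with its 95% interval as a line. Filled points passed an edgeR adjusted p of 0.05: Lrrtm4 at -0.87, Lrrtm3 at -0.75 and Ntng1 at -0.54.

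Of the netrin-G genes, Ntng1 (ENSMUSG00000059857.15, chromosome 3, 109780040 to 110144011, minus strand) fell by 0.54 on the log2 scale (SE 0.14, edgeR adjusted p = 0.0499). Wildtype libraries ran from 22.1 to 34.9 CPM with a median of 29.9 CPM and APPko libraries from 14.5 to 25.5 CPM with a median of 18.5 CPM. The ranges overlapped, since wildtype libraries 2 and 4 lay within the APPko range, and all 8 APPko libraries were below the wildtype median. The call sat at the threshold: it was kept in 2 of the 14 leave-one-out fits (those without wildtype library 4 and without APPko library 3), with edgeR adjusted p = 0.027 to 0.12 over the 14. The fold varied less than the call, between 1.37 and 1.54 over all settings run.

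Ntng2 (chromosome 2) was close to the limit of detection. Its counts ran from 0 to 24 in wildtype libraries and from 4 to 19 in APPko libraries. Wildtype library 2 had 0 counts, which allows up to 3 counts, or 0.14 CPM, and this limit covers counting error alone. The means were 0.34 ± 0.29 CPM in wildtype against 0.41 ± 0.19 CPM in APPko (SD, n = 6 and 8), and the 95% interval of the log2 fold change ran from -0.94 to 1.39. The interval holds differences of either sign, so the direction was not resolved at this depth. Part of its exons, 558 bases or 14%, also belong to the transcript 6530402F18Rik on the same strand, which had 1.38 ± 0.48 CPM in wildtype against 1.88 ± 0.51 CPM in APPko.

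Of the netrin-G ligand genes, Lrrc4c (ENSMUSG00000050587.14, chromosome 2, 96318169 to 97631666, plus strand), the partner of netrin-G1, was the one with a lower mean in APPko. Wildtype libraries held 93.9 to 163 CPM (median 117) and APPko libraries 71.6 to 103 CPM (median 86.9). Wildtype library 1 lay within the APPko range and the other 5 lay above it. The log2 fold change was -0.46 (SE 0.12) with an edgeR adjusted p of 0.055, and the gene passed in 3 of 13 other settings, DESeq2 among them, and in the leave-one-out fits without wildtype library 1 or 5.

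Lrrc4, the partner of netrin-G2, had 33.3 to 61.0 CPM in wildtype (median 47.1) and 45.9 to 52.5 CPM in APPko (median 49.9). The APPko libraries sat inside the wildtype range, where libraries 2 and 3 were lowest and library 6 highest. Its log2 fold change was 0.10 (SE 0.12, edgeR adjusted p = 0.69), with a 95% interval from -0.15 to 0.34. Lrrc4b, the ligand of LAR family phosphatases, showed the same layout at a lower level, 12.6 to 33.7 CPM in wildtype and 22.7 to 30.1 CPM in APPko. Its log2 fold change was 0.17 (SE 0.16, edgeR adjusted p = 0.60), with a 95% interval from -0.17 to 0.50. In the f libraries alone Lrrc4b was 12.6 to 22.3 CPM in 3 wildtype and 22.7 to 30.1 CPM in 7 APPko libraries. It passed as higher there (log2 fold change 0.55, edgeR adjusted p = 0.035), as did 1674 of 23580 tested genes. In the m libraries Lrrc4b was 24.4 to 33.7 CPM in 3 wildtype libraries and 25.6 CPM in the APPko library. The test of this difference between f and m libraries gave a log2 value of -0.73 (edgeR adjusted p = 0.20, unadjusted 0.035), so it did not pass. With the header suffix as covariate Lrrc4b had a log2 fold change of 0.37 and did not pass (edgeR adjusted p = 0.18).

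For the 3 genes that fell, the difference had the same sign in f and m libraries. The mean log2 CPM of Lrrtm3 differed between APPko and wildtype by -0.73 in f and -0.66 in m libraries, that of Lrrtm4 by -0.88 and -0.76, and that of Ntng1 by -0.52 and -0.64. For Lrrtm2 it was -0.38 and -0.44, and for Lrrc4c -0.53 and -0.16. The sign differed between f and m libraries for Lrrc4 (0.30 and -0.015), Lrrtm1 (0.080 and -0.014) and Ntng2 (1.12 and -1.01), besides Lrrc4b. The m values rest on 1 APPko library and have no replicate in that genotype. None of the 9 genes had a genotype difference that itself differed between f and m libraries at an edgeR adjusted p under 0.05. Lrrc4b alone had an unadjusted p under 0.05. Over all 22150 tested genes 411 passed this test, a small share, so the lack of a call among 9 genes says little about them.

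Levels were compared between genes as CPM per kb of merged exons. These lengths include exon bases shared with other genes, 25.1% for Lrrtm4 and 14% for Ntng2. How reads there were counted is not given in the sources used here. In wildtype Lrrc4c (26.4 ± 5.46 CPM per kb), Lrrtm4 (26.0 ± 10.9) and Lrrtm1 (21.1 ± 1.75) were the highest of the 9, with overlapping ranges (SD, n = 6). Lrrc4 (11.6 ± 2.56), Lrrtm2 (10.3 ± 1.73) and Lrrc4b (8.02 ± 2.52) came next and overlapped with each other, and Lrrc4b overlapped with Lrrtm3 (6.77 ± 0.76). Lrrtm1 lay above Lrrc4, Lrrtm3 above Ntng1 (3.53 ± 0.61) and Ntng1 above Ntng2 (0.085 ± 0.072) with no overlap in wildtype. Lrrc4c was higher than 87.9% of 15754 tested protein-coding genes, Ntng1 higher than 51.8% and Ntng2 higher than 2.10%.

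In APPko the top of the order changed. Lrrtm1 came first (22.2 ± 2.19 CPM per kb, SD, n = 8), before Lrrc4c (19.2 ± 2.46) and Lrrtm4 (14.3 ± 2.94). Lrrtm4 was above Lrrtm1 in 4 of 6 wildtype libraries and in 0 of 8 APPko libraries. As a share of the summed level per kb of the 4 Lrrtm genes, Lrrtm4 made up 39.3 ± 9.25% in wildtype and 29.3 ± 4.35% in APPko, and Lrrtm1 33.8 ± 7.37% and 45.8 ± 3.66%. Ntng1 made up 97.7 ± 2.24% of the netrin-G level in wildtype and 95.9 ± 1.92% in APPko. Lrrc4c made up 57.4 ± 9.98% of the netrin-G ligand level in wildtype and 47.3 ± 3.68% in APPko. The ranges of the genotypes overlapped for each of these shares.

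**Figure D3:**
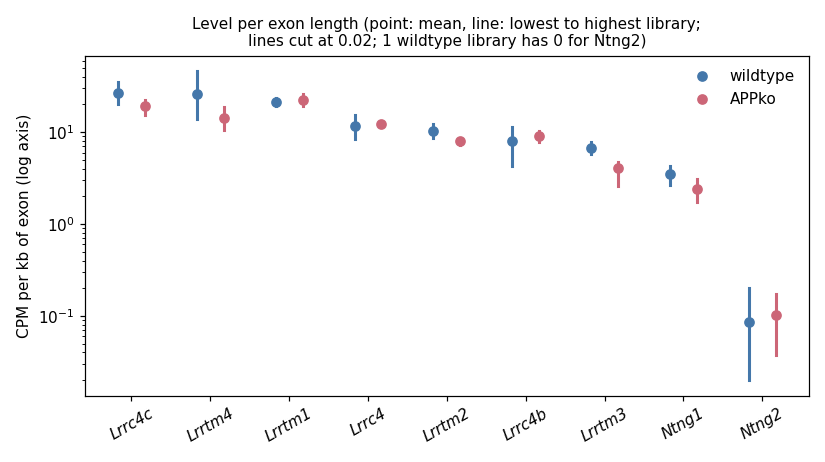
Level per exon length (CPM per kb, log axis) of the 9 genes, ordered by their wildtype mean. Points are means over 6 wildtype and 8 APPko libraries and lines run from the lowest to the highest library. Lrrc4c, Lrrtm4 and Lrrtm1 lead in wildtype, and Ntng2 lies far below the other 8 genes.

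Of 12 granule cell markers 2 passed the test as lower in APPko, against 1.41% of all tested genes. The sum of the 12 was lower in 6 of 8 APPko libraries than in any wildtype library. This sum was 893 to 1545 CPM in wildtype and 655 to 1069 CPM in APPko, and 2 of the 12, Rfx3 (1.43-fold) and C1ql3 (1.72-fold), fell past the threshold while none rose (edgeR adjusted p = 0.031 and 0.047). Calb1, the calcium buffer calbindin, was the most abundant of the 12 and did not pass (454 ± 184 CPM in wildtype against 277 ± 89.6 CPM in APPko, edgeR adjusted p = 0.14). Without it the sum was 674 ± 148 CPM in wildtype against 558 ± 95.1 CPM in APPko. C1ql2 and Pdzd2 had higher means in APPko and did not pass either. Prox1, a transcription factor on the list of granule cell markers, was at 158 ± 40.5 CPM in wildtype against 151 ± 33.4 CPM in APPko (edgeR adjusted p = 0.89). The 6 pan-neuronal markers summed to 3304 to 5769 CPM in wildtype and 3241 to 4278 CPM in APPko, and none of them passed. In bulk tissue, fewer cells of a type and less RNA per cell cannot be told apart. The part of either in the lower Lrrtm and Ntng1 levels was not tested.

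Set against the summed granule cell markers, Calb1 included, Lrrtm3 had 26.0 ± 3.93 CPM per 1000 CPM of markers in wildtype and 20.9 ± 4.68 in APPko (SD, n = 6 and 8). Lrrtm4 had 138 ± 30.8 and 105 ± 10.2, and Ntng1 26.5 ± 6.67 and 24.3 ± 5.81. The ranges of the genotypes overlapped in each case, and 2 of 8 APPko libraries lay below the lowest wildtype library for each of the 3 genes. The ratio of the means was 1.24 for Lrrtm3, 1.32 for Lrrtm4 and 1.09 for Ntng1, beside folds of 1.68, 1.82 and 1.46 on the CPM scale. On the same scale Lrrtm2 (55.7 ± 9.63 and 59.0 ± 9.50) and Lrrc4c (109 ± 14.9 and 109 ± 20.8) had like means in both genotypes. Lrrtm1 (58.7 ± 14.1 and 82.2 ± 14.3), Lrrc4 (42.5 ± 13.0 and 60.3 ± 9.22) and Lrrc4b (21.4 ± 7.43 and 32.1 ± 4.80) had higher means in APPko on it. These ratios depended on the markers summed, in alternatives chosen after seeing the data. Without Calb1 the ratio of the means was 1.40 for Lrrtm3, 1.502 for Lrrtm4 and 1.19 for Ntng1, and against Prox1 alone it was 1.61, 1.76 and 1.35. Against the pan-neuronal markers the ratio was 1.47 for Lrrtm3, 1.54 for Lrrtm4 and 1.28 for Ntng1.

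**Figure D4:**
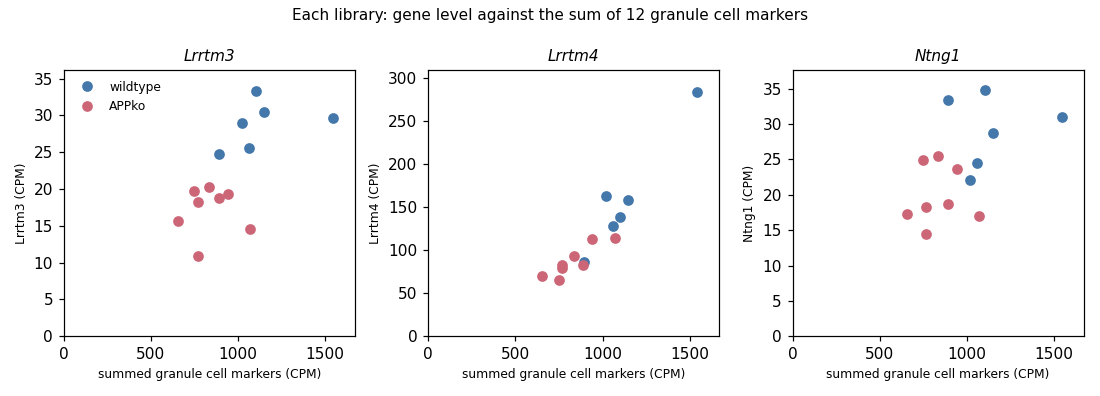
CPM of Lrrtm3, Lrrtm4 and Ntng1 (y axes) against the summed CPM of 12 granule cell markers (x axes), with a point for each of 14 libraries. The wildtype library with the highest marker sum, 1545 CPM, also has the highest Lrrtm4 level, 284 CPM. For Lrrtm3 every APPko point lies below every wildtype point, whatever the marker sum. Per 1000 CPM of these markers the Lrrtm3 ranges overlap, at 19.2 to 30.3 in wildtype and 13.6 to 26.3 in APPko.

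Heparan sulfate partners of LRRTM proteins and LAR family partners of NGL-3 were then read from lists of known binding partners. Gpc4, a glypican that binds LRRTM4, fell from 43.7 ± 9.01 to 30.3 ± 2.89 CPM (1.44-fold, edgeR adjusted p = 0.031), and Gpc1, another glypican, was 2.82-fold higher in APPko (2.85 ± 1.97 against 8.09 ± 1.63 CPM, edgeR adjusted p = 0.030). Ptprs, a LAR family phosphatase that binds both heparan sulfate and NGL-3, was 1.41-fold higher in APPko (145 ± 20.8 against 204 ± 9.54 CPM, edgeR adjusted p = 0.023). All 8 APPko libraries, from 194 CPM, were above the highest wildtype library, at 179 CPM. Of all tested genes 2.35% passed in either direction, and 1.12% had genotypes that did not overlap. The other glypicans on the list did not pass or were too low to test. Gpc4, Gpc1 and Ptprs kept their calls in 5, 6 and 11 of the 14 leave-one-out fits. Of the other LAR family genes, Ptprd stood at 199.7 ± 36.8 and 139 ± 31.3 CPM (edgeR adjusted p = 0.068) and Ptprf at 44.6 ± 9.80 and 52.9 ± 9.96 CPM (edgeR adjusted p = 0.36).

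On the postsynaptic side, 1 of 11 scaffold genes passed. Lin7a, a PDZ protein of the postsynaptic and presynaptic scaffold, fell from 163 ± 42.0 to 103 ± 12.8 CPM (1.59-fold, edgeR adjusted p = 0.026). It kept this call in 7 of the 14 leave-one-out fits. Its relative Lin7c stood at 216 ± 52.1 and 172 ± 16.8 CPM (edgeR adjusted p = 0.15), and Dlg4, the gene of PSD-95, at 29.3 ± 6.68 and 26.8 ± 3.39 CPM (edgeR adjusted p = 0.63). Of 18 other leucine-rich repeat adhesion genes 4 fell and none rose, with a median log2 fold change of -0.17 beside -0.55 for the 4 Lrrtm genes. For both counts, of all tested genes 1.41% passed as lower in APPko. Slitrk4 fell from 126 ± 22.1 to 78.5 ± 7.40 CPM (edgeR adjusted p = 0.0078). Slitrk2 (1.53-fold), Lrfn5 (1.35-fold) and Lingo2 (1.36-fold) were the other 3, with edgeR adjusted p of 0.031, 0.031 and 0.0499. Slitrk4 kept its call in each of the 14 leave-one-out fits, Slitrk2 and Lrfn5 each in 6, and Lingo2 in 1. Whether the Lrrtm genes changed more than these was not tested.

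4 of the 9 genes lie within the span of a larger gene on the opposite strand: Lrrtm1 in Ctnna2, Lrrtm2 in Ctnna1, Lrrtm3 in Ctnna3 and Lrrc4 in Snd1. Ctnna1, Ctnna2 and Ctnna3 encode alpha-catenins, which link cadherins to actin. Ctnna2 fell from 40.3 ± 7.75 to 28.8 ± 2.20 CPM (1.40-fold, edgeR adjusted p = 0.031, kept in 5 of the 14 leave-one-out fits), while its guest Lrrtm1 did not pass. Ctnna3 was at 1.96 ± 1.14 and 1.87 ± 0.52 CPM (edgeR adjusted p = 0.94), while its guest Lrrtm3 fell. Ctnna1 (100.5 ± 22.9 and 77.4 ± 9.62 CPM, edgeR adjusted p = 0.11) and Snd1 (47.6 ± 5.04 and 43.0 ± 4.13 CPM, 0.39) did not pass.

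Shared exon sequence touched 3 of the 9 genes. Lrrtm2 shares 95 bases (1.58% of its exons) with Ctnna1, Ntng2 shares bases as given above, and Lrrtm4 shares 1543 bases (25.1%) with the antisense gene Gm4409. Gm4409 was at 0.089 ± 0.11 CPM in wildtype against 0.067 ± 0.064 CPM in APPko and was not tested. The strand setting of the counting is not given in the sources used here, so reads from Lrrtm4 and Gm4409 cannot be told apart in the shared bases. Lrrtm3, Lrrc4c and Ntng1 share no exon base with another annotated gene.

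The genes whose profile over the 14 libraries came closest to those of the 3 genes that fell were taken from 17345 others with a mean of at least 1 CPM. The measure was the root mean square difference of log2 CPM after each gene was centred on its mean. For Lrrtm3 these were the potassium channel gene Kcnd2 (0.19), the cell adhesion gene Ntm (0.19) and the long noncoding RNA Miat (0.19), against a median of 0.53 over all genes compared. For Lrrtm4 they were Ppfia2 (0.21), which encodes a presynaptic liprin, Oca2 (0.21) and the purine synthesis gene Pfas (0.22), against a median of 0.63. For Ntng1 they were Castor2 (0.18), Ntm (0.19) and Ablim3 (0.21), against a median of 0.48. Kcnd2 went from 108 to 75.5 CPM in the mean, Ntm from 132 to 89.8 CPM and Ppfia2 from 452 to 264 CPM (edgeR adjusted p = 0.034, 0.045 and 0.017). Miat and Oca2 passed as lower too (edgeR adjusted p = 0.028 and 0.034). Castor2, Ablim3 and Pfas did not pass (edgeR adjusted p = 0.26, 0.10 and 0.062). The profiles include the genotype difference, so lower levels in these genes follow in part from how they were picked.

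**Figure D5:**
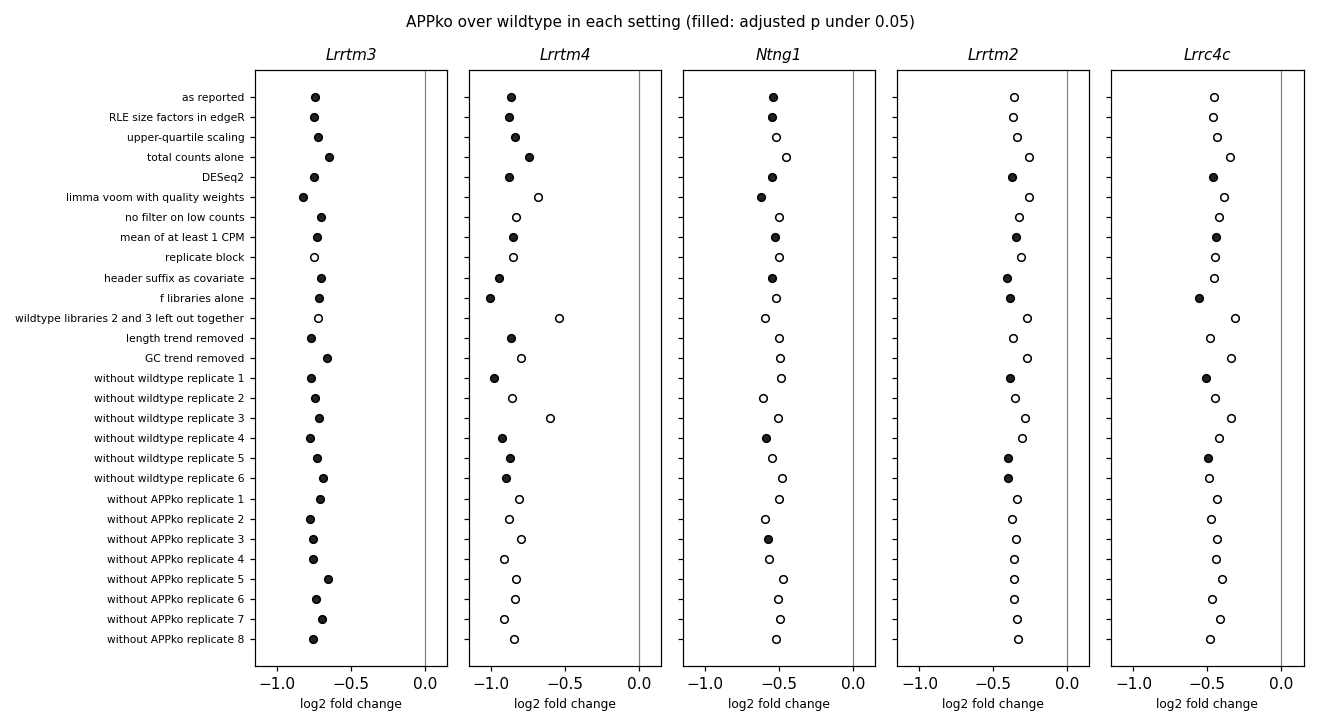
Log2 fold change of APPko over wildtype (x axes) for 5 genes in the reported fit, 13 other settings and 14 leave-one-out fits (y axis). Filled points passed an adjusted p of 0.05. All values are below 0, Lrrtm3 is filled in all but 2 settings, and Lrrtm4, Ntng1, Lrrtm2 and Lrrc4c change sides of the threshold.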

How the data were processed

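Each library has a deposited table of raw counts with a row for every gene symbol. The submitters' processing notes name featureCounts 2.0.1, STAR 2.7.8a and cutadapt 3.5 as the authors' tools and mm10 (GRCm38) as their build. Per the labels' protocols, cDNA from a single dentate gyrus was amplified over 12 cycles and libraries over 10, and read as 151 bp pairs. The protocols name no molecular identifiers, so reads are not taken as independent molecules. The strand setting, and how multi-mapping was handled, is not given in the sources used here. Positions and merged exon lengths come from the gene annotation deposited by the authors (GENCODE M25).

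Groups come from the sample titles. The 43 pairs of libraries within a genotype all differed by more than counting error (chi-square per degree of freedom of 7.76 to 94.1). Genes were filtered by edgeR's filterByExpr by genotype, scaled by TMM and compared by the robust quasi-likelihood test without covariate, with Benjamini-Hochberg adjustment over 22150 genes and a threshold of 0.05 (edgeR 4.0.16 in R 4.3.3, with DESeq2 1.42.0 and limma 3.58.1 for alternatives). Tested on simulated data of 21322 genes, the same steps recovered 24.2% of genes changed 1.5-fold, 65.6% changed 2-fold and 93.8% changed 4-fold, with 3 false calls among 21127. The simulated counts varied independently between genes and libraries. These rates therefore do not cover differences that many genes share within a library, as in wildtype libraries 2 and 3. The members, lists and alternatives were chosen with earlier results of these data known. Named genes are the 9 members, App, host genes, all passing genes and the 2 with the smallest p of each partner list, and for each passing member the 3 nearest profiles. Part of what was measured on the partner lists is not reported here. Dlg4, Ptprf, Prox1, Calb1, C1ql2, Pdzd2, Rfx3, C1ql3, Gm4409 and 6530402F18Rik were added by choice after their values were seen. Alternatives were other scalings, DESeq2, limma's voom, other filters, the replicate block, header suffix, f libraries alone, left-out libraries and an exon length trend. A GC trend and other sums of the granule cell markers were added after the data were seen.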

Additional observations from a re-analysis of the deposited data

How the results depend on the processing

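Lrrtm3, Lrrtm4, Ntng1, Lrrtm2 and Lrrc4c kept negative log2 fold changes in all 13 other settings and in all 14 leave-one-out fits. Lrrtm3 passed in 11 of the 13 (adjusted p = 3.74e-05 to 0.072), Lrrtm4 in 8 and Ntng1 in 5. The number of the 9 genes passing as lower, 3 as reported, was 5 with DESeq2 and with a mean of at least 1 CPM, 1 without a filter on low counts and with the GC trend removed, 0 without wildtype libraries 2 and 3 together and 0 with the replicate block. In the last 2 settings, fitted by edgeR and not by DESeq2, 5 genes had an unadjusted p under 0.05. The number ran from 1 to 4 in the leave-one-out fits, and in the f libraries alone 1 gene, Lrrc4b, passed as higher. Of all genes fitted, 1052 of 22150 passed as lower with DESeq2, 415 of 17372 with a mean of at least 1 CPM and 170 of 49361 without a filter. Lower calls were 108 of 22150 with the GC trend removed, 16 of 23764 without wildtype libraries 2 and 3, and 11 of 22150 with the replicate block. In the f libraries alone 1674 of 23580 genes passed as higher. The cause of these shifts was not tested. Values of 4 genes that did not pass changed sign: without wildtype libraries 2 and 3 Lrrc4 had -0.062, Lrrc4b -0.044 and Ntng2 -0.13, with the GC trend removed Lrrtm1 had -0.094, Lrrc4b -0.14 and Ntng2 -0.042, and over the leave-one-out fits Ntng2 ran from -0.032 (without wildtype library 2) to 0.75 (without wildtype library 4). Ntng2 has no value from DESeq2 or with a mean of at least 1 CPM. The GC setting was chosen after seeing the data.

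Over all genes, 209 higher and 312 lower calls became 749 and 1052 with DESeq2, 718 and 728 with the header suffix as covariate, 1674 and 1998 in f libraries alone, 131 and 194 with the length trend removed, 86 and 108 with the GC trend removed, 19 and 16 without wildtype libraries 2 and 3, and 10 and 11 with the replicate block. The lower calls were 119 with total counts alone, 173 with voom and 170 without a filter. Without single libraries they ran from 22 (without APPko library 5) to 735 (without wildtype library 4) higher and from 16 to 701 lower. The 10 calls on the partner lists became 5 with total counts alone and without a filter, 4 with the GC trend removed, and 1 with the replicate block and without wildtype libraries 2 and 3, and ran from 1 to 12 without single libraries. No sign of pairing by replicate number was seen. The correlation of same-numbered libraries' deviations ran from -0.34 to 0.19 over 6 numbers, and 1 of the 6 wildtype libraries correlated best with its own number. With a single pair per number, these correlations cannot exclude that libraries of the same number shared a preparation. At this depth Ntng2, with 0 to 24 counts, could not be resolved.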
